A study of Homo sapiens with 2 samples.

Results

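MYC and PVT1 are neighbouring genes on the long arm of human chromosome 8, in band 8q24.21, and 5 PRMT5 peaks lay in the interval that holds both. The interval ran from 128700000 to 129120000 on the hg19 build, and its peaks were 5 of the 2840 in the deposited list. They were chosen by position, as all peaks sharing at least 1 base with the interval, and the interval itself was drawn with the peak list already known. Positions, widths and scores of these peaks are therefore a description, and no test was made on them. The list comes from 1 library of untreated MDA-MB-231, a long-established line of human breast cancer cells, made by pulling down crosslinked chromatin with a PRMT5 antibody. A second library of the same untreated cells, input DNA that was not immunoprecipitated, was not analysed here, nor was any library made with the rabbit serum that the protocol mentions. With 1 library in each group, none of the values carries an error between cultures, and whether a peak would be found in a second culture was not tested.

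MYC encodes a transcription factor that pairs with MAX, binds E-box sequences and drives genes of growth, ribosome production and cell division. PVT1 is a long noncoding RNA gene that lies downstream of MYC, is often amplified together with it in cancer, and hosts several microRNAs. The stretch around both genes holds many enhancers, and in breast cancer cells the PVT1 promoter has been described as competing with MYC for some of them. PRMT5 is the arginine methyltransferase that, with its partner WDR77, places symmetric dimethyl marks on histones and on splicing proteins.

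Both genes are read in the same direction, so that higher positions are downstream. MYC was taken as 128748315 to 128753680 (5366 bp) and PVT1 as 128806779 to 129113499 (306721 bp), with 53098 bp between them. In the order of RefSeq genes on GRCh38.p14, no other gene lies between the ends of MYC and PVT1. Within PVT1 that table lists 7 genes, among them the microRNA genes MIR1204, MIR1205, MIR1206 and MIR1207. The nearest protein-coding gene upstream of MYC is POU5F1B and the nearest one downstream of PVT1 is GSDMC. Names, order and whether a gene model is longer than the one used here were taken from that table, and no coordinate, because its build differs from that of the peaks. Its models of both MYC and PVT1 are longer. Every distance, count by gene, share of gene length and density below therefore holds for the gene ends given above. Coordinates were not moved between builds. Exons and introns on hg19 were not used here, so the peaks were placed against gene ends alone.

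With these gene ends, 1 PRMT5 peak lay just downstream of MYC and 4 lay inside PVT1. None lay within 5 kb of the start of either gene. The MYC gene body, up to the end used here, held 0 peaks. Within 5 kb of the MYC start there were 0 peaks, and within 5 kb of the PVT1 start there were 0. Between the genes lay 1 peak, which began 172 bp past the MYC end used here, and the PVT1 gene body held 4. The peak between the genes began 5537 bp from the MYC start, so the 0 at that start depends on the 5 kb limit. Whether the longer MYC model takes in the peak beside MYC was not determined, so the count of 0 for MYC depends on that end. The remaining parts of the interval, upstream of MYC and downstream of PVT1, held 0. The list gives no read counts and the depth of the library is unknown, so a gene start without a peak cannot be read as free of PRMT5.

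**Figure D1:**
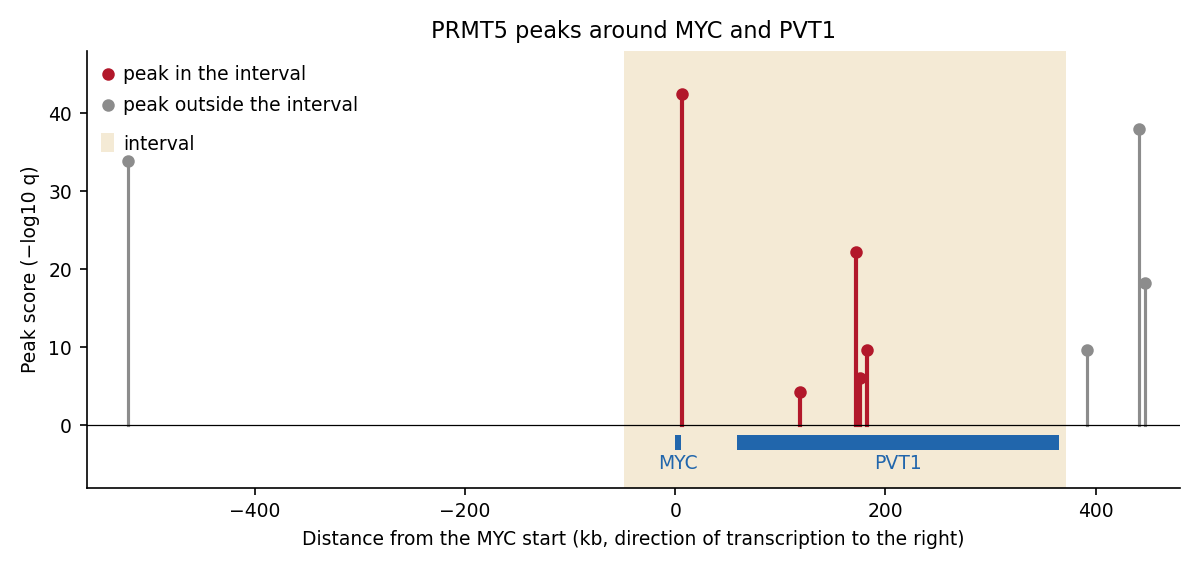
The horizontal axis is the distance from the MYC start in kb, with MYC and PVT1 as blue bars. The vertical axis is the score of each peak, read as −log10 q. The 5 peaks of the interval (red, shaded area) comprise 1 with a score of 42.5 beside MYC and 4 within PVT1 with scores of 4.32 to 22.2; grey peaks lie outside the interval.

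The peak beside MYC, called peak 1, was the strongest and widest of the 5. It covered 128753852 to 128755792, a width of 1941 bp, and had a score of 42.5. The score was read as the −log10 of the q-value of the peak caller, although the deposited list does not name its columns. On that reading, 42.5 stands for a q-value of 2.99e-43. Peak 1 ranked 46 by score and 7 by width among all 2840 peaks, and 2 by score among the 179 peaks of chromosome 8. It was 5.94 times as wide as the next widest peak of the interval and 9.24 times as wide as the median peak of the list, which measured 210 bp.

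Peak 1 began 172 bp after the last base of MYC and ended 2112 bp after it. Counted from the MYC start, it reached from 5537 to 7477 bp downstream. From its last base to the start of PVT1 there were 50987 bp. It was therefore far nearer to the end of MYC than to the start of either gene. Whether it lies inside or past the longer MYC model was not determined.

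**Figure D2:**
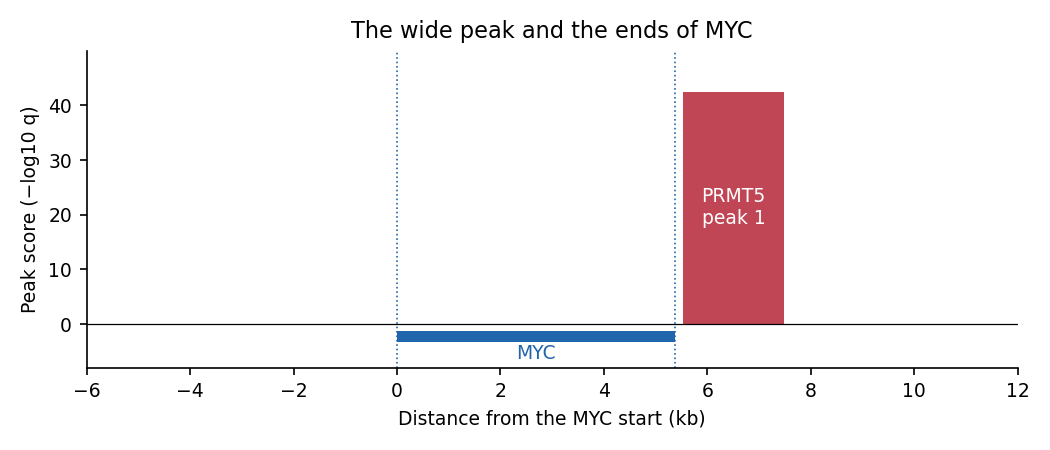
The horizontal axis is the distance from the MYC start in kb and the vertical axis the score (−log10 q); the red box spans the width of peak 1 and its height is the score, not a read profile. The box starts 172 bp past the MYC end (right dotted line), and no other peak falls in the stretch shown.

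Among the wide peaks of the list, peak 1 had a rank in the upper part by width and score, and it lay farther from its neighbours than most. Peaks above 1 kb made up 1.94% of the list, and 1 of the 5 peaks of the interval was among them. To leave out crowded regions, wide peaks were then counted on chromosomes 1 to 22 and X outside 1 Mb windows that held 10 or more peaks. There were 32 of them, with scores from 6.09 to 201 and a median of 30.4. Peak 1 ranked 9 of 32 by score and 4 of 32 by width, and it was the only one of the 32 on chromosome 8. Its nearest neighbour in the list lay 110678 bp away, whereas the median distance for the 32 was 18.6 kb. In 10 of them the nearest peak was farther away than that of peak 1, and in 12 it was within 10 kb.

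Inside PVT1, the 4 peaks were 152 to 327 bp wide, and they lay in the part of the gene nearer to its start. Peak 2, the weakest of the 5, covered 128866471 to 128866633 (163 bp), 59692 bp after the PVT1 start. Its score of 4.32, read in the same way, stands for a q-value of 4.78e-05, and it ranked 2415 of 2840. It had no neighbour within 10 kb, with 53475 bp to the next peak.

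Peaks 3, 4 and 5 formed a group that spanned 11013 bp, from 128920109 to 128931121. Peak 3 was the strongest within PVT1. It covered 128920109 to 128920435 (327 bp), 113330 bp after the PVT1 start, with a score of 22.2 and rank 225. Peak 4 followed after 3252 bp, at 128923688 to 128923866 (179 bp), with a score of 6.13 and rank 1898. Peak 5 followed after a further 7103 bp, at 128930970 to 128931121 (152 bp), with a score of 9.60 and rank 1045. Only the first of the group thus had a high score. Of the 4 PVT1 peaks, it was also the only one wider than the list median.

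Along PVT1, the midpoints of peaks 2 to 5 lay at 19.5%, 37.0%, 38.1% and 40.5% of the gene's length. After peak 5, the last 182378 bp of PVT1, up to the gene end used here, held 0 peaks. Together the 4 peaks covered 821 bp, or 0.268% of the gene. Which of them, if any, overlap a PVT1 exon or a hosted microRNA was not determined, because positions of these on hg19 were not used here.

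Taken as a set, the 5 peaks were spread within the list rather than gathered at its upper end. Their median score was 9.60, against 7.80 over all peaks, and 3 of the 5 lay above that list median. Their median width was 179 bp, against 210 bp, and 2 of the 5 were wider than that. Scores above 20 were found in 2 of the 5 peaks, peaks 1 and 3, against 9.44% of the list. Peak 1 alone made up 70.3% of the 2762 bp that the 5 peaks covered. With 5 peaks of 1 library, these shares describe the interval only.

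**Figure D3:**
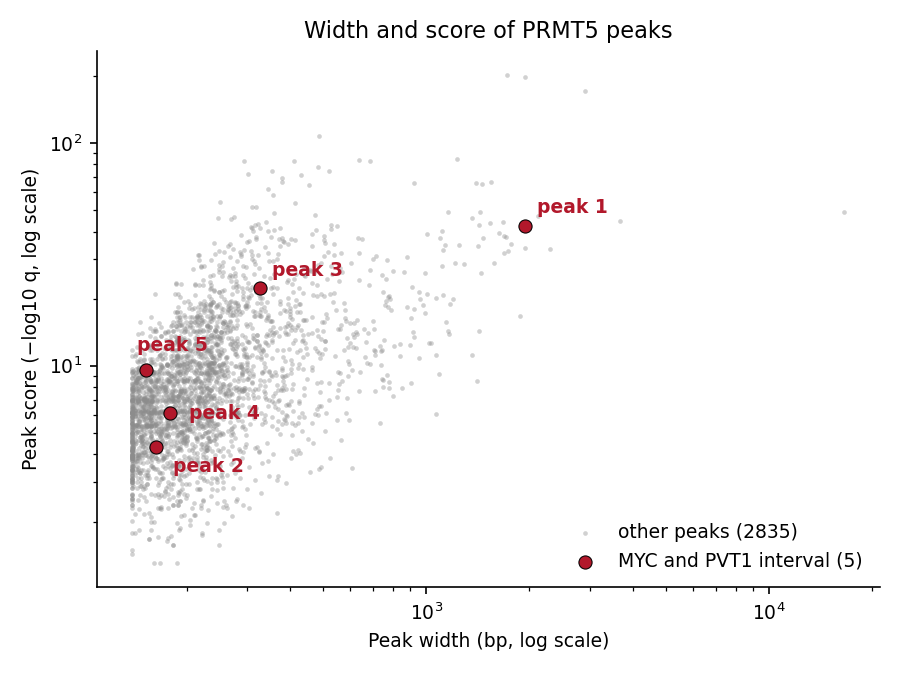
Each point is 1 peak, with its width in bp on the horizontal axis and its score (−log10 q) on the vertical axis, both on log scales; the 5 peaks of the interval are red and the other 2835 grey. Peak 1 (1941 bp, 42.5) lies among the wide and strong peaks, peak 3 (327 bp, 22.2) above the bulk, and peaks 2, 4 and 5 within it.

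Grouping of neighbouring peaks in the interval came from the PVT1 group alone. Another peak within 10 kb was found for 3 of the 5 peaks, peaks 3, 4 and 5, against 39.5% of all peaks. That share includes the crowded 1 Mb windows. Outside them, on chromosomes 1 to 22 and X, 541 of 2204 peaks had such a neighbour. Chains of 3 or more peaks with steps of at most 10 kb were uncommon there, with 46 among 1897 chains, single peaks included (2.42%). In 35 of these 46 the highest score was below the 22.2 of the PVT1 chain, and the median of their highest scores was 14.6.

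Further peaks lay just outside the interval. Downstream of PVT1, the nearest peak lay 26598 bp past the gene end used here, at 129140097 to 129140348, with a score of 9.72. A pair followed 75430 and 81931 bp past the gene end. The first of the pair covered 129188929 to 129189431 (503 bp) with a score of 38.0, and the second 129195430 to 129195830 (401 bp) with a score of 18.2. Whether these 3 peaks lie past or inside the longer PVT1 model was not determined. The first of the pair was stronger than each of the peaks counted within PVT1, and it ranked 4 by score on chromosome 8. Upstream, the nearest peak lay 520505 bp before the MYC start, at 128227472 to 128227810, with a score of 33.9. The downstream end of the interval was thus the one with peaks close by, the nearest 20.1 kb beyond it. Inside the interval, peak 1 began 53.9 kb from the upstream end and peak 5 ended 189 kb from the downstream end.

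Beyond these, long stretches held no peak. The last 5066976 bp before the upstream peak at 128227472 were empty, and of 2792 gaps between successive peaks on chromosomes 1 to 22 and X, 4.66% were at least as long. Downstream of the pair, 1502111 bp were empty, and 20.9% of gaps were at least as long. The 526041 bp between the upstream peak and peak 1 were matched or exceeded by 35.5% of gaps. These shares include the gaps inside crowded 1 Mb windows and were not recomputed without them. The median gap to the next peak was 133 kb over all peaks and 365 kb for peaks outside such windows.

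The interval held more peaks per Mb than the averages of the rest of its band, of chromosome 8 and of chromosomes 1 to 22 and X. Its density was 11.9 peaks per Mb, and that of the PVT1 body 13.0 per Mb. The rest of band 8q24.21 held 14 peaks, or 3.70 per Mb, with scores of 5.73 to 38.0 and a median of 19.4, and 0 of the 14 were wider than 1 kb. Chromosome 8 had 1.22 peaks per Mb, and 0.748 without its 2 windows of 1 Mb that held 10 or more peaks. Chromosomes 1 to 22 and X had 0.927 per Mb, and 0.732 outside all such windows. Ends drawn around known peaks raise a density, so the value for the interval is not an estimate for the locus at large.

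Windows of the same length were laid end to end from the first base of each chromosome. Where they began did not depend on these peaks. Their length and the limit of 5 peaks were taken from the interval, which was drawn with the list known. The shares below therefore describe the list and do not measure how unusual the locus is. Of 7219 such windows of 420 kb, 81.1% held 0 peaks and 1.12% (81 windows) held 5 or more. Every full window was counted, so this share carries no sampling error within the list and no measure of spread. In 33 of the 81, peaks of a crowded 1 Mb window were present, and the other 48 were 0.669% of the 7179 windows without such peaks. MYC and PVT1 fell across 2 of the fixed windows, which held 5 and 3 peaks. The 5 were peaks 1 to 5, and the 3 were those past the PVT1 end. A count of 5 was not the highest on chromosome 8 outside crowded windows. There, 3 fixed windows held 5 or more, and the other two held 6 each, at 7980001 to 8400000 and, within band 8q24.21 itself, at 131040001 to 131460000. Band 8q24.21 as a whole, with 19 peaks at 4.52 per Mb, ranked 25 by density of 851 bands and 3 of 40 on chromosome 8. Leaving out bands with crowded windows, it ranked 7 of 824 and 1 of 37. These band ranks include the 5 peaks of the interval and were not recomputed without them, so they too only describe the list. Copy number of the region in these cells was not measured here, and its part in these counts was not tested.

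**Figure D4:**
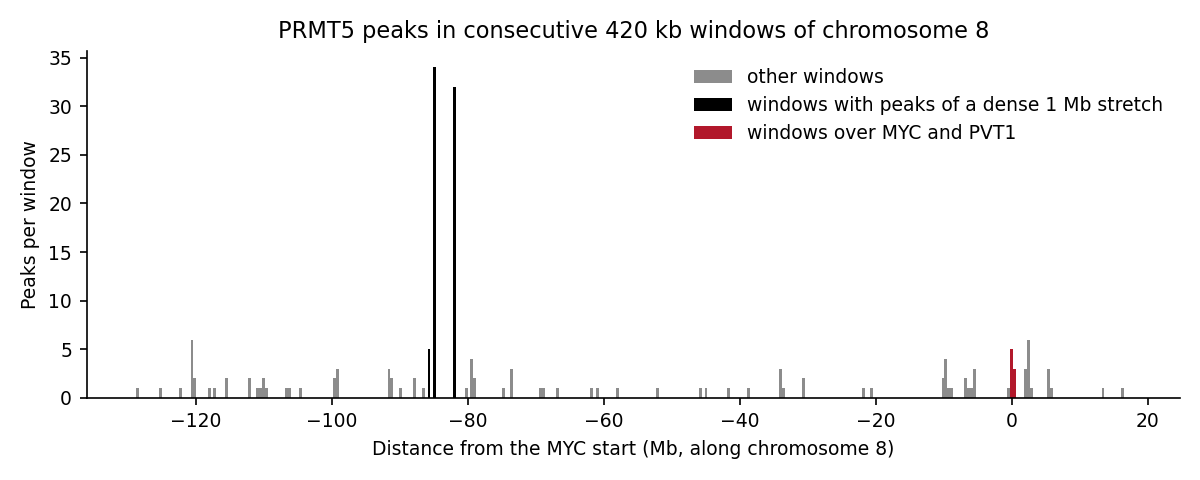
The horizontal axis is the distance from the MYC start along chromosome 8 in Mb, and each bar counts the peaks in 1 of 348 consecutive windows of 420 kb. The red windows over MYC and PVT1 hold 5 and 3 peaks, while the 2 tallest black windows, with peaks of a crowded 1 Mb stretch, hold 34 and 32.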

How the data were processed

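One PRMT5 library was analysed, through the peak list its authors deposited. The file has no header. Its last column was read as the −log10 of the q-value that the authors' caller gave each peak, since the smallest value, 1.30, matches a q-value threshold of 0.05. Per the submitters' processing notes, CASAVA 1.4, Bowtie2 and MACS2 were used with hg19; settings, duplicate handling and any use of the input as control are not given in the sources used here. Such settings decide which weak or wide regions pass as peaks.

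The interval and gene ends were fixed hg19 positions, and coordinates are counted from 1. The members and all thresholds were chosen with earlier results of these data known. Every peak of the interval was named. Overlap needed 1 shared base, and gaps run from one peak's last base to the next one's first. Band and chromosome lengths came from circlize 0.4.16. Calculations used Python 3.11.15 and pandas 2.3.3, with matplotlib 3.10.9 for plots. Overlap, gap and merging steps were tested on a made-up list. Alternatives were higher score limits, merging of neighbours, other flanks and shifted windows. Counts at other genes of the MYC network were planned only for an hg19 annotation and were not made.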

Additional observations from a re-analysis of the deposited data

How the results depend on the processing

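The count of 5 peaks in the interval was unchanged when peaks within 1 kb were merged or when the peak midpoint had to lie inside. It was 3 in the highest-scoring 50% of the list, 2 in the highest-scoring 25%, and 3 when neighbours up to 10 kb apart were merged. The first 2 drops follow from dropping the weaker PVT1 peaks and the last from joining peaks 3 to 5. The density of the interval, 11.9 peaks per Mb as reported, was 7.14 with 3 peaks and 4.76 with 2. Densities of the other regions were not recomputed at these settings. The count at MYC stayed at 1 with flanks of 1 and 10 kb, and that in PVT1 stayed at 4 with 5 kb flanks. The PVT1 count fell to 2 in the highest-scoring 50% of peaks and to 1 in the highest-scoring 25%. With neighbours up to 10 kb apart merged, it was 2. The share of windows with at least as many peaks was 1.07% with shifted windows and 1.19% in the highest-scoring 50%, where the interval held 3. Peak 1 ranked 38 by score outside crowded windows. No paired analysis was possible because there is only 1 PRMT5 library. Read depth is unknown, so its limit on weak peaks such as peak 2 cannot be stated.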
